A study of Homo sapiens with 2 samples.

Results

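MTRNR2L12, MTRNR2L8 and MTRNR2L6 are nuclear copies of the gene for the large mitochondrial ribosomal RNA, and they were followed here across sections of 2 breast tumors. They are 3 of 36601 features, taken by symbol, and were chosen from values of these same sections: how patchy they were, how much of their signal lay in an area of low RNA yield, and how they differed from each other. Those values are therefore given as a description, with no test. The fitted comparisons further below use the same sections, so none of them is independent of that choice. Of the 13 MTRNR2L genes in the RefSeq table, 11 were measured, and the other 8 measured genes are given beside the chosen ones. MTRNR2L2 and MTRNR2L9 were not analysed here.

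Both tumors were grown from MDA-MB-231, an established human triple-negative breast cancer cell line, here carrying a hypoxia fate-mapping reporter that marks cells once they have met low oxygen. Tumor 1 (Tumor-897) and tumor 2 (Tumor-899) belong to the same group, received no treatment, and were frozen after 18 days of growth. One 10 µm section of each, fixed in methanol, was placed on a Visium slide, where each barcoded spot collects RNA from a region that can hold several cells or part of one. The labels name neither the host nor whether the line was 1 clone or which animals the tumors came from, and the spread between the sections may be technical. The images of the reporter were not used here. The fitted comparisons therefore set zones within a section against each other, with the tumor as a block.

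The MTRNR2L genes resemble MT-RNR2, the mitochondrial gene whose transcript forms the core of the large mitochondrial ribosomal subunit. A short open reading frame in MT-RNR2 gives humanin, a peptide known to protect cells from death, to bind the cell death protein BAX and the growth factor carrier IGFBP3, and to signal through a receptor made of CNTFR, IL27RA and IL6ST. Several MTRNR2L genes hold a similar reading frame, and whether they make peptides in tumors is not settled. Because the copies are so alike, reads can be split between them or shared with MT-RNR2. How reads matching several copies were counted is not given in the sources used here, so the value of each single copy is uncertain throughout.

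In RefSeq (GRCh38.p14) all 3 genes are listed as pseudogenes. MTRNR2L12 (ENSG00000269028) lies at chr3:96617186-96618223 and overlaps no other gene. MTRNR2L8 (ENSG00000255823) lies at chr11:10507887-10509176, 308 bases from AMPD3, and holds the microRNA gene MIR4485. MTRNR2L6 (ENSG00000270672) lies at chr7:142667017-142667685, inside the T cell receptor beta locus between TRBV24-1 and TRBV25-1.

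MIR4485 is shown because it is the annotated microRNA that shares bases with one of the 3 genes, and its mature form is known to match mitochondrial ribosomal RNA. The hairpin lies at chr11:10508270-10508326 on the minus strand, with the mature arm in capitals, and the mature microRNA at chr11:10508277-10508296 has its seed, bases 2 to 8, in capitals. Both sequences are RefSeq's, read 5′ to 3′, and the microRNA itself was not measured.
MIR4485 hairpin: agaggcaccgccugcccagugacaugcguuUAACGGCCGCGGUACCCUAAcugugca
hsa-miR-4485-3p: uAACGGCCgcgguacccuaa

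Tumor 1 gave 58661164 unique molecular identifiers (UMIs, counts of captured RNA molecules) over 2536 spots, and tumor 2 gave 39735490 over 2841 spots with at least 500 UMIs. Of the markers checked against the labelled cell line, VIM was at 5639 and 5548 counts per 1000000 UMIs (CPM), while ESR1, PGR and CDH1 were each below 0.13 CPM and ERBB2 and EPCAM between 17.8 and 26.2 CPM. The sections share 1627 barcodes, which mark positions on the slide and not cells. A threshold on UMIs smoothed over adjacent spots set apart a low-UMI area of 566 spots in tumor 1 (22.3%, with a median of 4815 UMIs each) and 856 spots in tumor 2 (30.1%, with a median of 1470 UMIs each). In such data fewer cells and less RNA per cell cannot be told apart.

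MTRNR2L12 had 12434 UMIs in tumor 1 and 5840 in tumor 2, or 212 and 147 CPM. MTRNR2L8 had 4769 and 2081 UMIs, or 81.3 and 52.4 CPM. MTRNR2L6 had 836 and 1020 UMIs, or 14.3 and 25.7 CPM, and so was the one of the 3 with more UMIs in the shallower section. Of the other family members, MTRNR2L1 had 930 and 596 UMIs and MTRNR2L10 had 825 and 430. The remaining 6 measured genes (MTRNR2L3, MTRNR2L4, MTRNR2L5, MTRNR2L7, MTRNR2L11 and MTRNR2L13) had between 2 and 105 UMIs per tumor. A UMI of MTRNR2L12 was seen in 96.4% of spots of tumor 1 and 80.7% of tumor 2, and one of MTRNR2L6 in 24.7% and 20.6%.

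On the maps, MTRNR2L12 and MTRNR2L8 were bright over the low-UMI area in the middle of both sections. MTRNR2L6 was bright along parts of the tissue border of tumor 2, with weaker patches at the right border of tumor 1. In tumor 2 a small low-UMI island at the upper border was bright for MTRNR2L6 and dark for MTRNR2L8.

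**Figure D1:**
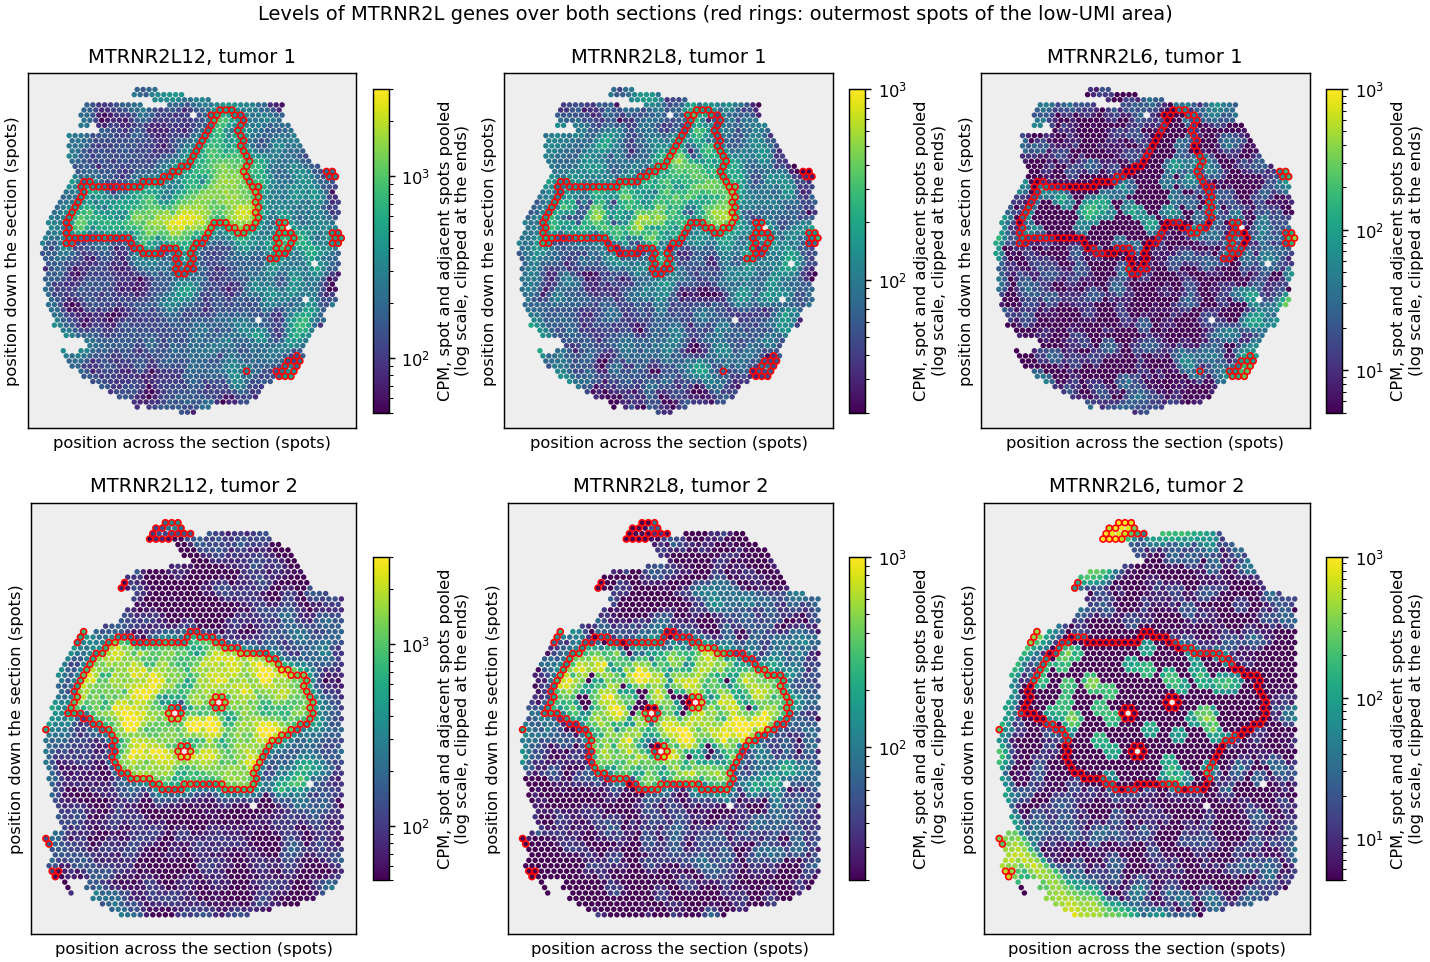
Level of MTRNR2L12, MTRNR2L8 and MTRNR2L6 at each spot of both sections, in CPM of the spot pooled with its adjacent spots, on log colour scales that differ between genes; axes are positions on the slide and red rings mark the outermost spots of the low-UMI area. MTRNR2L12 and MTRNR2L8 are highest inside the central ringed area, and MTRNR2L6 is highest at the border of tumor 2.

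In the low-UMI area, by which the genes were chosen, MTRNR2L12 was at 740 CPM against 182 CPM in the rest of tumor 1, and at 1286 against 102 CPM in tumor 2. MTRNR2L8 was at 209 CPM inside and 74.0 CPM outside in tumor 1, and at 342 and 40.9 CPM in tumor 2. MTRNR2L6 was at 30.6 against 13.3 CPM and 74.97 against 23.7 CPM. Each of the 3 was thus higher in the area in both tumors, by the widest ratio for MTRNR2L12 (4.06-fold and 12.6-fold) and the narrowest for MTRNR2L6 (2.30-fold and 3.17-fold). Among 8889 genes at 10 CPM or more in both tumors, MTRNR2L12 ranked 3 by this ratio in both, MTRNR2L8 ranked 6 and 5, and MTRNR2L6 ranked 10 and 12. MTRNR2L1 ranked 5 and 8 and MTRNR2L10 ranked 8 and 7, so 5 MTRNR2L genes stood among the 12 highest ratios in each tumor. The median ranked gene had a log2 ratio of -0.09 in tumor 1 and -0.12 in tumor 2.

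Those ratios are of levels relative to all RNA, and the counts per spot read differently. MTRNR2L12 had 4.11 UMIs per spot in the low-UMI area and 5.13 outside in tumor 1, and 2.27 and 1.97 in tumor 2. Over the same spots, all genes together went from 5551 UMIs per spot inside to 28182 outside in tumor 1, and from 1761 to 19259 in tumor 2. So the yield of MTRNR2L12 per spot was nearly level (0.800-fold and 1.15-fold inside over outside) where that of all genes was 5.08-fold and 10.9-fold lower inside. MTRNR2L8 had 1.16 UMIs per spot inside and 2.09 outside in tumor 1, and 0.603 and 0.788 in tumor 2. MTRNR2L6 had 0.170 and 0.376, and 0.132 and 0.457, so its yield per spot was lower inside in both tumors.

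The share of the low-UMI area in each gene's UMIs followed the same order. The area held 5.36% of all UMIs in tumor 1 and 3.79% in tumor 2. It held 18.7% and 33.2% of the UMIs of MTRNR2L12, 13.8% and 24.8% of those of MTRNR2L8, and 11.5% and 11.1% of those of MTRNR2L6.

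Other mitochondrial transcripts were also higher in the area, mostly by smaller ratios. The 13 protein-coding transcripts of the mitochondrial genome summed to 29940 CPM inside and 23380 CPM outside in tumor 1, and to 29418 and 16399 CPM in tumor 2. MT-ATP8, which encodes a small subunit of ATP synthase, was at 201 against 74.9 CPM and 328 against 29.2 CPM, ranking 7 and 4. MT-ND6, a complex I subunit read from the other strand of the mitochondrial genome, was at 19.4 against 9.10 CPM and 51.8 against 5.07 CPM. MT-CO1, the catalytic subunit of cytochrome oxidase, had log2 ratios of 0.21 and 0.69. MALAT1, an abundant nuclear long noncoding RNA, had 0.74 and 1.44, and NEAT1, the scaffold of paraspeckles, -0.09 and -0.03. The genes with higher ratios than MTRNR2L12 were AL627171.2 (2.79 and 4.39) and AL355075.4 (2.25 and 4.14).

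In tumor 1, MTRNR2L12 was at 1177 CPM in spots 5 or more steps inside the edge, where a step is the distance between adjacent spots. It was at 571 CPM within 2 steps inside, at 272 CPM within 2 steps outside, and at 148 CPM 9 or more steps outside. In tumor 2 the same distances gave 1564, 1018, 196 and 84.4 CPM, with the widest gap between the spots just inside and just outside the edge. MTRNR2L8 was at 261 CPM deepest inside and 62.0 CPM farthest outside in tumor 1, and at 431 and 35.4 CPM in tumor 2. MTRNR2L6 had no such order in tumor 2, with 50.6 CPM deepest inside, 121 CPM at 3 to 4 steps inside and 24.1 CPM farthest outside. Counted per spot, MTRNR2L12 stayed between 3.77 and 5.66 UMIs over the 7 distances in tumor 1 and between 1.76 and 2.89 in tumor 2.

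**Figure D2:**
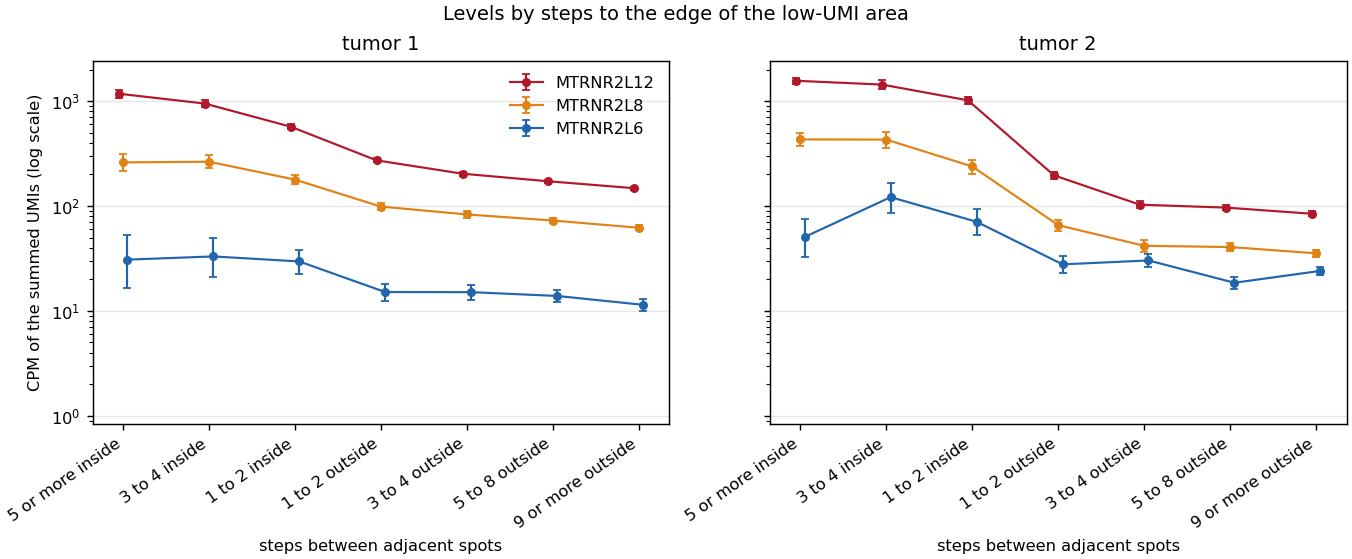
CPM of MTRNR2L12, MTRNR2L8 and MTRNR2L6 (log axis) by steps to the edge of the low-UMI area in each tumor; points are levels of summed UMIs and bars are 95% Poisson intervals, which cover counting error only. MTRNR2L12 goes from 1177 to 148 CPM in tumor 1 and from 1564 to 84.4 CPM in tumor 2 from the deepest to the farthest spots.

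Depth within the tissue separated MTRNR2L6 from the others inside the area. In tumor 2, the 30 low-UMI spots within 2 steps of the tissue border held 59 of the 113 UMIs of MTRNR2L6 in the area (582 CPM, 95% Poisson interval 443 to 750), and there MTRNR2L12 was at 187 CPM and MTRNR2L8 at 59.1 CPM. In tumor 1 the 25 such spots had MTRNR2L6 at 126 CPM (83.7 to 182). Among spots 16 or more steps from the border, where low-UMI and other spots can be compared at like depth, MTRNR2L6 was at 22.7 CPM inside the area and 8.34 CPM outside in tumor 1. In tumor 2 it was at 34.5 and 8.45 CPM. MTRNR2L12 was there at 967 and 176 CPM in tumor 1 and at 1411 and 138 CPM in tumor 2, and MTRNR2L8 at 227 and 66.5 CPM and at 406 and 54.1 CPM. At this depth too, the level of each of the 3 was higher inside the area in both tumors.

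Outside the low-UMI area the levels also varied with the depth of the spot's own library. In the quartile of these spots with the fewest UMIs, MTRNR2L12 was at 333 CPM against 127.4 CPM in the quartile with the most in tumor 1, and at 223 against 70.4 CPM in tumor 2. MTRNR2L8 was at 109 against 61.8 CPM and 54.3 against 35.04 CPM. MTRNR2L6 was at 27.8 against 9.07 CPM and 112 against 7.52 CPM. The CPM of all 3 genes was higher in the shallower spots in each tumor. CPM divides by the UMIs that set these quartiles, so a gene with level counts per spot is higher there. Per spot, MTRNR2L12 had 5.10 UMIs in the shallowest and 5.35 in the deepest quartile of tumor 1, and 2.15 and 1.95 in tumor 2. MTRNR2L8 had fewer in the shallowest, at 1.66 and 2.60, and 0.523 and 0.968. MTRNR2L6 had 0.426 and 0.381, and 1.08 and 0.208. The median UMIs of the zones are given with each comparison.

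As a measure of patchiness, Moran's I of log2(1 + UMIs per 10000) over adjacent spots was 0.56 for MTRNR2L12 in tumor 1 and 0.58 in tumor 2, ranks 9 and 3 of 4693 genes with at least 0.5 UMI per spot. It was 0.19 and 0.24 for MTRNR2L8 (ranks 187 and 168), where the median gene had 0.05 and 0.09. MTRNR2L6, with fewer UMIs, had 0.10 and 0.35, ranks 812 and 33 of 7238 genes with at least 0.25 UMI per spot. Without the low-UMI area, the value was 0.34 and 0.31 for MTRNR2L12 and 0.13 and 0.51 for MTRNR2L6. The patchiness of MTRNR2L12 was therefore lower and that of MTRNR2L6 in tumor 2 higher in the remaining tissue.

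Of the 5% of spots with the highest smoothed level of a gene, every one lay in the low-UMI area for MTRNR2L12 and for MTRNR2L8 in both tumors. For MTRNR2L6 the share was 60.6% in tumor 1 and 31.7% in tumor 2. The highest spots of MTRNR2L6 lay at a median of 2 steps from the border in tumor 2, those of MTRNR2L12 at 17 and those of MTRNR2L8 at 20, against 11 for all spots. MTRNR2L12 and MTRNR2L8 shared 60.6% of their highest spots in tumor 1 and 35.2% in tumor 2, and MTRNR2L12 and MTRNR2L6 shared 17.3% and 5.63%. In tumor 2, MTRNR2L6 shared 44.4% of its highest spots with MTRNR2L10.

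The proportions of the copies shifted between zones, which is again a description. MTRNR2L8 made up 27.7% of the UMIs of MTRNR2L8 and MTRNR2L12 together in tumor 1 and 26.3% in tumor 2. In the low-UMI area the share was 22.1% (95% Clopper-Pearson interval 20.6 to 23.6) and 21.0% (19.4 to 22.7), against 28.9% (28.2 to 29.7) and 28.6% (27.4 to 29.9) in the rest. The share of MTRNR2L8 was thus lower in the area in both sections. MTRNR2L6 made up 11.1% of the UMIs of MTRNR2L6 and MTRNR2L12 within 2 steps of the border and 3.53% at 16 or more steps in tumor 1. The same positions gave 42.5% and 3.88% in tumor 2, so the tumors differed at the border and were close to each other in the deep tissue.

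The first fitted comparison asked how far the pattern reached beyond the low-UMI area. Its spots were left out, and the tertile of the remaining spots nearest to it (729 and 737 spots) was set against the farthest tertile (781 and 717 spots). The near spots began 1 step from the area, and the genes were also chosen by their patchiness over all spots. The comparison is thus not independent of that choice. MTRNR2L12 was at 234 CPM near and 149 CPM far in tumor 1, and at 129 and 82.4 CPM in tumor 2. MTRNR2L8 was at 89.9 and 64.1 CPM, and at 46.6 and 34.96 CPM. MTRNR2L6 was at 15.1 and 11.5 CPM, and at 27.9 and 24.4 CPM. Near CPM was higher than far CPM within each tumor for each gene, while near values of one tumor overlapped far values of the other. Counted per spot, MTRNR2L6 was slightly lower near, at 0.359 against 0.366 UMIs in tumor 1 and 0.474 against 0.506 in tumor 2. MTRNR2L8 was at 2.14 against 2.04 and 0.792 against 0.725, and MTRNR2L12 at 5.56 against 4.76 and 2.19 against 1.71. All genes together had 23808 UMIs per spot near and 31909 far in tumor 1, and 16992 and 20743 in tumor 2.

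Relative to all RNA, all 3 genes were called higher near the area. Of 14764 genes, 10.1% were called in either direction, 6.08% higher and 4.01% lower (edgeR quasi-likelihood test, Benjamini-Hochberg adjusted p under 0.05). MTRNR2L12 was 1.64-fold higher (log2 0.71 ± 0.05 SE, n = 2 tumors, edgeR adjusted p = 2.4e-14), with 0.71 in each tumor. MTRNR2L8 was 1.44-fold higher (0.53 ± 0.06, edgeR adjusted p = 2.08e-08), with 0.56 and 0.48. MTRNR2L6 was 1.27-fold higher (0.35 ± 0.09, edgeR adjusted p = 0.0101), with 0.46 and 0.25, and at 0.05 (edgeR adjusted p = 0.847) once spots within 2 steps of the tissue border were left out. MTRNR2L10 was higher as well relative to all RNA (0.36 ± 0.11, edgeR adjusted p = 0.0318). Per spot it had 0.368 UMIs near and 0.373 far in tumor 1, and 0.187 and 0.213 in tumor 2. MTRNR2L1, MTRNR2L7 and MTRNR2L13 did not pass, at 0.20, 0.32 and 0.87. By DESeq2's Wald test MTRNR2L12 and MTRNR2L8 passed and MTRNR2L6 did not (adjusted p = 0.672). The edgeR p-values rest on 4 sums of UMIs and 1 residual degree of freedom, with the variance shared across genes. Each SE is the absolute log2 value divided by the square root of that test's F. It does not measure the spread between the tumors.

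Other features moved with this contrast. Near spots had a median of 22550 UMIs against 31642 far in tumor 1 and 17022 against 21117 in tumor 2, and 43.2% and 51.7% of near spots lay in the high-hypoxia zone defined below against 11.4% and 13.1% of far spots. Of the 28 hypoxia genes, 27 were called higher near the area. Red blood cell markers summed to 96.0 against 36.2 CPM and 51.6 against 26.6 CPM, and skeletal muscle markers to 17.3 against 12.6 CPM and 190 against 325 CPM. Without spots holding 0.1% or more muscle marker UMIs, MTRNR2L12 was at 0.72, MTRNR2L8 at 0.52 and MTRNR2L6 at 0.45, all called. The part of depth, hypoxia genes and red blood cells in these differences was not tested.

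Distance to the tissue border was compared next, as the inner tertile (1 of 3 equal parts) of spots (848 and 979) against the outer tertile (919 and 997), whatever their UMIs. MTRNR2L12 was at 264 CPM inside and 187 CPM outside in tumor 1, and at 264 and 106 CPM in tumor 2. MTRNR2L8 was at 91.4 and 74.5 CPM, and at 89.0 and 33.6 CPM. MTRNR2L6 was at 10.8 and 18.4 CPM, and at 10.7 and 46.3 CPM. The inner levels of each gene were alike in the 2 tumors, the tumors differed in the outer tertile, and inner and outer values did not overlap for any of the 3.

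MTRNR2L12 and MTRNR2L8 were called higher and MTRNR2L6 lower in the inner tertile, where 5.66% of 14758 genes were called in all, 2.3% higher and 3.36% lower. MTRNR2L12 had log2 0.90 ± 0.12 SE (edgeR adjusted p = 8.85e-05), with 0.49 in tumor 1 and 1.34 in tumor 2. MTRNR2L8 had 0.79 ± 0.15 (edgeR adjusted p = 0.00267), with 0.29 and 1.43. MTRNR2L6 had -1.40 ± 0.18 (edgeR adjusted p = 7.94e-05), with -0.77 and -2.07. Inner and outer spots had a median of 16273 and 24694 UMIs in tumor 1 and 2757 and 17407 in tumor 2. The low-UMI area took 42.1% and 56.6% of inner spots against 7.73% and 11.03% of outer spots. Without it, MTRNR2L12 was at 0.21 (edgeR adjusted p = 0.0791) and no longer called, MTRNR2L8 was at 0.29 (edgeR adjusted p = 0.0118), and MTRNR2L6 was at -1.60 (edgeR adjusted p = 1.41e-29). With spots thinned to 1000 UMIs, which gives low-UMI spots the weight of others, MTRNR2L12 was at 1.81 and MTRNR2L8 at 1.84. The genes were chosen by their values in the low-UMI area. With that area included, the comparison thus partly repeats the choice and is no independent test for MTRNR2L12 and MTRNR2L8. The genes were also chosen by their patchiness and by how they differed from each other. For MTRNR2L6 it is therefore no independent test either. By DESeq2's Wald test none of the 3 passed, with adjusted p = 0.749 for MTRNR2L12, 0.9999 for MTRNR2L8 and 0.624 for MTRNR2L6. None of MTRNR2L1, MTRNR2L7, MTRNR2L10 and MTRNR2L13 passed by edgeR.

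Markers of fibroblasts, macrophages and granulocytes, skeletal muscle and adipocytes mostly lay with MTRNR2L6 in the outer tertile. Those of endothelium, skin epithelium and red blood cells mostly did not. Of all genes, 3.36% were called lower and 2.3% higher in the inner tertile. Of the tested markers, 9 of 10 for fibroblasts, 5 of 8 for macrophages and granulocytes, 7 of 7 for skeletal muscle, 2 of 2 for adipocytes, 1 of 5 for endothelium and 1 of 4 for skin epithelium were called lower in the inner tertile, and 1 of 2 for red blood cells higher. Without spots holding 0.1% or more muscle marker UMIs, MTRNR2L6 was at -0.96 (edgeR adjusted p = 3.18e-04).

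In finer steps outside the low-UMI area, MTRNR2L6 was at 21.7 CPM within 2 steps of the border and 8.34 CPM at 16 or more in tumor 1, and at 78.7 and 8.45 CPM in tumor 2. It was lower at each further distance in both tumors. MTRNR2L12 was at 188 and 176 CPM in tumor 1 with little between, and in tumor 2 went from 122 CPM at the border through 84.6 CPM at 6 to 10 steps to 138 CPM in the deep tissue. MTRNR2L8 was at 72.8 and 66.5 CPM in tumor 1, and in tumor 2 at 28.5 CPM at 3 to 5 steps and 54.1 CPM at 16 or more.

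**Figure D3:**
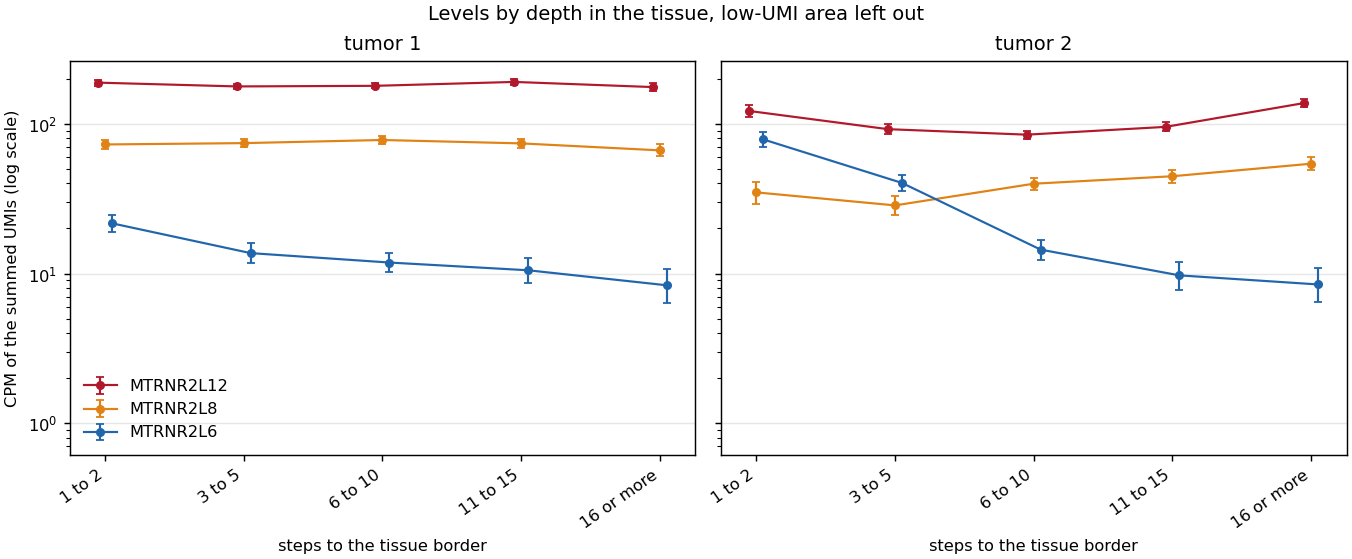
CPM of the 3 genes (log axis) by steps to the tissue border in each tumor, with the low-UMI area left out; points are levels of summed UMIs and bars are 95% Poisson intervals for counting error. MTRNR2L6 goes from 21.7 to 8.34 CPM in tumor 1 and from 78.7 to 8.45 CPM in tumor 2 from the border to the deep tissue.

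The hypoxia comparison set the quartile of spots with the highest smoothed score of 28 hypoxia genes against the quartile with the lowest. MTRNR2L12 was at 246 CPM in high-score and 153 CPM in low-score spots of tumor 1, and at 145 and 194 CPM in tumor 2, so it was higher with the score in one tumor and lower in the other. MTRNR2L8 was at 102 and 55.3 CPM, and at 61.1 and 51.0 CPM, higher with the score in both. MTRNR2L6 was at 11.9 and 12.5 CPM in tumor 1, within counting error, and at 13.4 and 84.7 CPM in tumor 2.

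Here 13.4% of 14192 genes were called, 7.6% higher and 5.83% lower, and 2 of the 3 genes passed. MTRNR2L8 rose (log2 0.72 ± 0.13 SE, edgeR adjusted p = 0.00299), with 0.996 in tumor 1 and 0.35 in tumor 2. MTRNR2L6 was called lower (-1.37 ± 0.39, edgeR adjusted p = 0.0376), a call that rests on tumor 2, with 0.05 and -2.55, and that was lost without the spots holding 0.1% or more muscle marker UMIs (-0.63, edgeR adjusted p = 0.11) and by DESeq2's Wald test (adjusted p = 0.743). MTRNR2L12 did not pass (0.26 ± 0.18, edgeR adjusted p = 0.38), with 0.80 and -0.33. MTRNR2L1, MTRNR2L7, MTRNR2L10 and MTRNR2L13 did not pass either, and MTRNR2L1 and MTRNR2L10 had opposite signs in the tumors (0.43 and -1.20, 0.63 and -1.78).

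The low-UMI area was spread unevenly over the score zones, at 18.6% of high-score and 11.2% of low-score spots in tumor 1 and 9.42% and 54.7% in tumor 2. The median spot had 20108 and 29313 UMIs in tumor 1, and 17689 and 2138 in tumor 2. With the area left out, MTRNR2L12 was higher in the high-score zone (0.78 ± 0.09, edgeR adjusted p = 8.92e-05), as was MTRNR2L8 (1.19 ± 0.12, edgeR adjusted p = 5.74e-05), while MTRNR2L6 was at -1.35 (edgeR adjusted p = 0.0422). With each spot thinned to 1000 UMIs, so that low-UMI spots weigh as much as others, MTRNR2L12 was instead lower (-0.69, edgeR adjusted p = 6.58e-05) and MTRNR2L8 was at -0.03 (edgeR adjusted p = 0.972). The direction for MTRNR2L12, and the call for MTRNR2L8, thus changed between these settings. Thinning also left out 201 low-UMI spots of tumor 2 and left 7662 genes to test, and the part of each change was not tested. Fibroblast markers summed to 1124 and 953 CPM in high- and low-score spots of tumor 1 and to 824 and 2155 CPM in tumor 2, and skeletal muscle markers to 14.4 and 12.9 CPM and to 24.3 and 970 CPM.

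The last comparison set the quartile of spots richest in markers of other cells (58 genes of skeletal muscle, skin epithelium, fibroblasts, adipocytes, red blood cells, endothelium, and macrophages with granulocytes) against the poorest quartile. The share was taken over all these markers together. This comparison and the hypoxia one included the low-UMI area, and neither is independent of how the genes were chosen. MTRNR2L6 was at 21.9 CPM in marker-rich and 10.9 CPM in marker-poor spots of tumor 1, and at 78.7 and 8.80 CPM in tumor 2. MTRNR2L12 was at 196 and 265 CPM, and at 125 and 143 CPM. MTRNR2L8 was at 76.0 and 96.0 CPM, and at 30.9 and 58.0 CPM. MTRNR2L6 had rich and poor values that did not overlap, and those of MTRNR2L12 and MTRNR2L8 overlapped across the tumors though not within one.

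MTRNR2L6 was 4.15-fold higher in marker-rich spots (log2 2.05 ± 0.20 SE, edgeR adjusted p = 2.57e-11), with 0.96 in tumor 1 and 3.07 in tumor 2. These tumor values lay further apart than the SE, which does not measure their spread. In this comparison 13.8% of 14219 genes were called, 7.22% higher and 6.53% lower. MTRNR2L12 fell (-0.37 ± 0.08, edgeR adjusted p = 0.00128), with -0.47 and -0.25, but was at -0.18 without the low-UMI area (edgeR adjusted p = 0.131). MTRNR2L8 fell (-0.63 ± 0.10, edgeR adjusted p = 5.86e-06), with -0.37 and -0.97. MTRNR2L10 (0.96 ± 0.18, edgeR adjusted p = 1.1e-04), MTRNR2L13 (1.53 ± 0.50, edgeR adjusted p = 0.0342) and MTRNR2L1 (0.49 ± 0.17, edgeR adjusted p = 0.0375) rose, the last with -0.11 in tumor 1 and 1.22 in tumor 2. MTRNR2L7 did not pass, so 4 of the 7 tested family genes were higher and 2 lower. By DESeq2's Wald test MTRNR2L8 passed, and MTRNR2L12 (adjusted p = 0.183) and MTRNR2L6 (adjusted p = 0.523) did not.

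**Figure D4:**
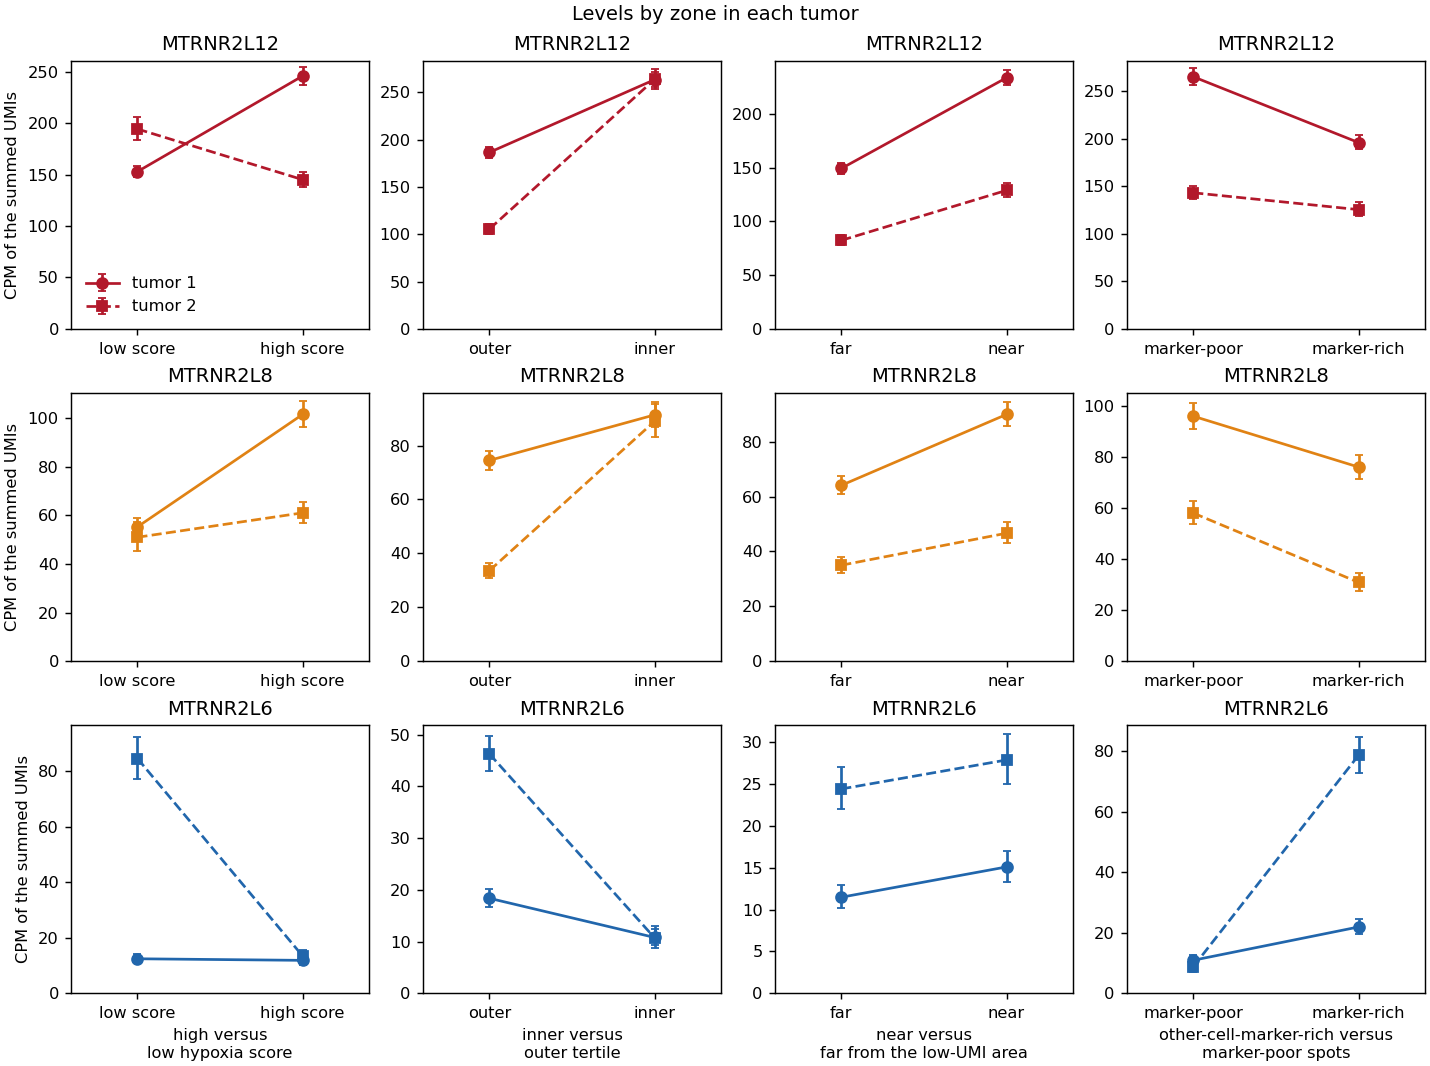
CPM of MTRNR2L12 (top), MTRNR2L8 (middle) and MTRNR2L6 (bottom) in the 2 zones of each of the 4 fitted comparisons; each point is 1 zone of 1 tumor, lines join the zones of a tumor, bars are 95% Poisson intervals, and axes start at 0. MTRNR2L12 has opposite slopes in the tumors for the hypoxia score, and MTRNR2L6 goes from 8.80 to 78.7 CPM from marker-poor to marker-rich spots of tumor 2.

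The marker-rich quartile differed between tumors in what it held. Its spots had a median of 21984 UMIs against 22468 in the poor quartile of tumor 1, and 13468 against 17892 in tumor 2. Fibroblast markers summed to 2211 CPM in rich and 357 CPM in poor spots of tumor 1, and to 3078 and 280 CPM in tumor 2, with all 12 genes detected in the rich zones. Skeletal muscle markers (10 genes) summed to 15.02 and 14.0 CPM in rich and poor spots of tumor 1, with 1 gene at 0 in each zone. In tumor 2 they summed to 864 against 23.8 CPM, with none at 0. Endothelium markers were close, at 106 and 90.5 CPM and at 104 and 97.6 CPM. So were skin epithelium markers, at 492 and 464 CPM and at 507 and 502 CPM. Red blood cell markers summed to 157 and 14.5 CPM and to 78.2 and 21.7 CPM. Those of macrophages and granulocytes summed to 310 and 224 CPM and to 282 and 217 CPM, and of adipocytes to 6.91 and 2.37 CPM and to 5.75 and 1.94 CPM. Without spots holding 0.1% or more muscle marker UMIs, MTRNR2L6 was still higher (1.51 ± 0.14, edgeR adjusted p = 5.31e-26), and without spots within 2 steps of the border it was at 1.76 (edgeR adjusted p = 1.31e-29). The counted features are human genes, and which species the marker UMIs and the MTRNR2L UMIs in these spots came from was not tested.

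The fibroblast markers gave the same order when taken alone. Outside the low-UMI area and among spots with no muscle marker UMI, MTRNR2L6 was at 9.49 CPM (95% Poisson interval 7.57 to 11.8) in the quartile poorest in fibroblast markers of tumor 1 and at 23.3 CPM (20.3 to 26.6) in the richest. In tumor 2 it was at 8.30 CPM (6.27 to 10.8) and 38.2 CPM (32.6 to 44.6). MTRNR2L8 went the other way, from 92.4 to 70.2 CPM and from 60.8 to 31.9 CPM, as did MTRNR2L12, from 231 to 194 CPM and from 154 to 111 CPM. Quartiles by macrophage and granulocyte markers gave MTRNR2L6 levels of 9.92 and 22.5 CPM in tumor 1 and 10.4 and 35.9 CPM in tumor 2.

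Where tumor 2 met skeletal muscle, the copies parted furthest. In the 26 spots with 1% or more of their UMIs in muscle markers, MTRNR2L6 was at 674 CPM (95% Poisson interval 567 to 796), against 12.4 CPM (10.8 to 14.2) in spots with some but under 0.1%. MTRNR2L10 was at 194 against 5.65 CPM and MTRNR2L1 at 102 against 11.9 CPM. MTRNR2L8 was at 9.70 CPM from 2 UMIs (1.17 to 35.03) against 39.8 CPM (36.9 to 42.9). MTRNR2L12 was at 247 CPM (184 to 325) against 90.6 CPM, and the mitochondrial genome transcripts summed to 6928 against 16230 CPM. The median spot had 7984 UMIs at 1% or more and 21388 under 0.1%. All 26 muscle-rich spots lay within 5 steps of the tissue border. Among spots that close to it, MTRNR2L6 was at 39.4 CPM (34.4 to 44.9) with no muscle marker UMI. It was at 21.7 CPM (17.7 to 26.3) there with some but under 0.1%. Neither the part of depth or border position nor the species that the UMIs of these copies came from was tested. Against the 1840 spots with no muscle marker UMI (median 9690 UMIs), where MTRNR2L6 was at 19.3 CPM, MTRNR2L10 at 10.4, MTRNR2L1 at 14.8 and MTRNR2L8 at 65.1 CPM, the first 3 were also higher and MTRNR2L8 lower. MTRNR2L12 was at 194 CPM in those spots, within the interval of the muscle-rich ones, but 42.5% of those spots lay in the low-UMI area. With that area left out, MTRNR2L12 was at 116 CPM (112 to 121) with no muscle marker UMI. At 1% or more it was then at 253 CPM (188 to 332), so it too was higher. MTRNR2L8 was at 45.2 and 9.91 CPM in the same 2 classes.

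The 116 spots with 0.1 to 1% muscle marker UMIs had MTRNR2L6 at 253 CPM, MTRNR2L8 at 14.6 CPM and MTRNR2L12 at 123 CPM. MTRNR2L6 made up 73.2% (66.3 to 79.3) of the UMIs of MTRNR2L6 and MTRNR2L12 at 1% or more, against 12.04% (10.6 to 13.6) under 0.1%. MTRNR2L8 made up 3.77% (0.46 to 13.0) of MTRNR2L8 and MTRNR2L12 there, against 30.5% (28.6 to 32.5). These classes were chosen after the values were seen, and no spot of tumor 1 reached 0.1%.

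**Figure D5:**
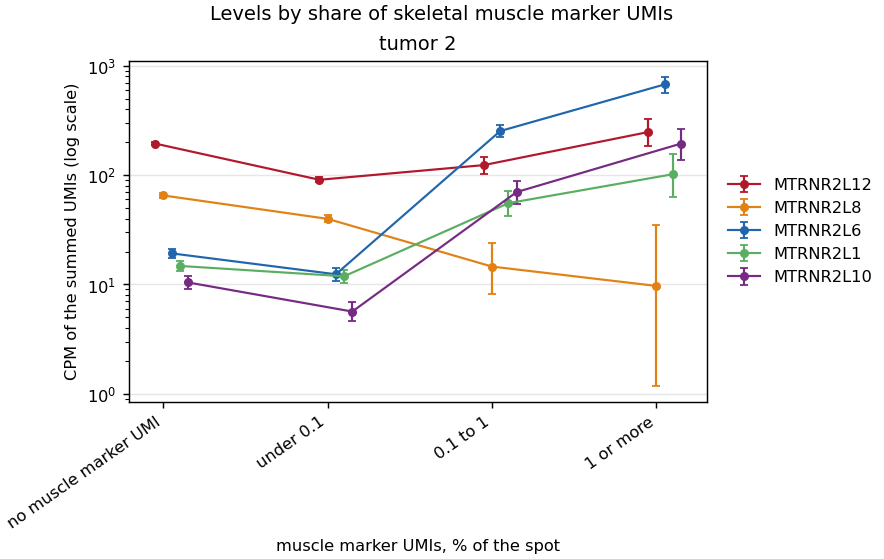
CPM of 5 MTRNR2L genes (log axis) in spots of tumor 2 grouped by the percent of UMIs in skeletal muscle markers (1840, 859, 116 and 26 spots); points are levels of summed UMIs and bars are 95% Poisson intervals for counting error. MTRNR2L6 reaches 674 CPM and MTRNR2L8 9.70 CPM in the class with 1% or more.

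Genes whose pattern over spots was most like each copy were ranked by the lower of the 2 tumors' Pearson r over spots (2536 and 2841 spots, 4693 genes), which share library depth and neighbouring tissue. MTRNR2L12 was most like AL627171.2 (r = 0.63 in tumor 1 and 0.67 in tumor 2), followed by MTRNR2L8 (0.37 and 0.39), MT-ATP8 (0.36 and 0.39), MT-ND3 (0.35 and 0.40) and the phospholipase gene PLCG2 (0.39 and 0.33). MTRNR2L8 was most like MTRNR2L12, then AL627171.2 (0.32 and 0.37), MT-ND3, MT-ND4 and MT-CO2. MTRNR2L6 had no mitochondrial gene among its 5: they were the collagen COL3A1 (0.22 and 0.43), the matrix protein SPARC (0.19 and 0.28), the collagen COL1A2 (0.18 and 0.28), ZNF90, and PCOLCE, a protein that aids collagen processing. Outside the low-UMI area, the leading gene was NDRG1, a hypoxia-induced gene, for MTRNR2L8 (0.28 and 0.28) and remained COL3A1 for MTRNR2L6 (0.27 and 0.52) and AL627171.2 for MTRNR2L12 (0.50 and 0.47).

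Between the copies themselves, r was 0.37 and 0.39 for MTRNR2L12 with MTRNR2L8, 0.09 and -0.01 for MTRNR2L12 with MTRNR2L6, and 0.00 and -0.05 for MTRNR2L8 with MTRNR2L6. MTRNR2L6 had r = 0.49 with MTRNR2L10 and 0.33 with MTRNR2L1 outside the low-UMI area of tumor 2, and 0.10 and 0.09 in tumor 1. Few UMIs per spot can lower such values, and how far they did so here was not tested.

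Of 13 transcripts of the mitochondrial genome, 2 were higher near the low-UMI area (MT-ND4L at log2 0.29 and MT-ATP8 at 0.28), where 6.08% of all genes were, and the list median was 0.06. In the inner tertile 3 were higher, against 2.3% of all genes, among them MT-ND6 (0.71) and MT-ATP8 (0.68), with a median of 0.15. In the high-score zone 3 were lower, against 5.83% of all genes, led by MT-ND6 (-0.69) and MT-CYB (-0.27), with a median of -0.13. In marker-rich spots 2 were lower, MT-ND4L (-0.35) and MT-ATP8 (-0.28), against 6.53% of all genes, with a median of -0.09. Over all genes the median log2 value was between -0.0039 and 0.0032 in each comparison.

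Of 30 genes for mitochondrial RNA synthesis, processing and ribosomal RNA assembly, none passed between inner and outer tertiles, where 5.66% of all genes did (MRM1 at -0.29 and TFB2M at 0.25 were farthest from 0), and 2 were lower near the low-UMI area, where 4.01% of all genes were, among them POLRMT, the mitochondrial RNA polymerase (-0.24). In the high-score zone 4 were lower, against 5.83% of all genes, led by the ribosomal RNA methyltransferase MRM1 (-0.59) and HSD17B10, a subunit of mitochondrial RNase P (-0.38). In marker-rich spots MRM1 was higher (0.47) and 3 were lower, against 7.22% and 6.53% of all genes, while RPUSD4 at -0.33 did not pass. Of 9 humanin receptors and binding partners 6 could be tested, with 1 passing in each comparison. Of all genes, 13.4% passed in the hypoxia comparison, 5.66% between inner and outer tertiles, 10.1% between near and far spots and 13.8% with marker-rich spots. A count of 1 among 6 therefore says little about the list. IGFBP3 was higher in the high-score zone (1.55) and near the low-UMI area (0.46) and lower in marker-rich spots (-0.51). BCL2L11, a death-promoting member of the BCL2 family, was higher in the inner tertile (0.52), and BAX, IL6ST and IL27RA passed in none of the 4 comparisons. In a list of 6 nuclear long noncoding RNAs, MALAT1 and NEAT1 were higher in the high-score zone (0.97 and 1.003) and in the inner tertile (0.58 and 0.62). They were also higher near the low-UMI area (0.51 and 0.44), and lower in marker-rich spots (-0.53 and -0.62). Of all genes, 7.6%, 2.3% and 6.08% were called higher in the first 3 zones and 6.53% lower in the last. In marker-rich spots 1 member of the list was called higher. The list medians were 0.10, -0.006, -0.03 and 0.02 in the same order.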

How the data were processed

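Visium libraries of 1 section from each of 2 MDA-MB-231 tumors were analysed from the deposited matrices, whose values are raw UMI counts per gene and spot which, per the file headers, came from the authors' run of Space Ranger 1.3.0. The submitters' processing notes name hg38 as the build. Whether reads matching several copies were dropped, split or assigned is not given in the sources used here. The genes, lists and zones were chosen with earlier results of these data known.

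From the counts, tissue spots under 500 UMIs were removed, which left out 5 spots of tumor 2. Levels are CPM of counts summed over spots, with 95% Poisson intervals, and shares have 95% Clopper-Pearson intervals. Both cover counting error only. The low-UMI area was set by Otsu's threshold on smoothed UMIs, and zones were quartiles of a score or tertiles of a distance. Counts were summed per zone and tumor, and zones were tested with edgeR's quasi-likelihood test across all genes left by filterByExpr, TMM scaling, the tumor as a block and a Benjamini-Hochberg adjusted p under 0.05; genes that defined a score were not tested with it. The zones of one section share a slide area and a tissue, so they are paired by the tumor. SE values were derived from the test's F and not from the spread between the tumors. The script was tested on simulated data.

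Named genes were the MTRNR2L genes, the 5 genes most like each of the 3, and in each list the 2 members with the largest absolute change. MT-CO1, NDRG1, IL27RA and the genes named for the low-UMI area were singled out after their values were seen. The hypoxia score used 28 genes listed for this work. Positions and microRNA sequences are from RefSeq, GRCh38.p14. Alternatives were other scalings, DESeq2, filters, zone widths, thinning to 1000 UMIs, no replicate block and leaving out spots or a tumor. Tools were Python 3.11.15, numpy 2.4.6, scipy 1.17.1, pandas 2.3.3, matplotlib 3.10.9, R 4.3.3, edgeR 4.0.16 and DESeq2 1.42.0.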

Additional observations from a re-analysis of the deposited data

How the results depend on the processing

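Of the tested alternative values for the 3 genes in the 4 comparisons, 96 kept their direction and side of the threshold, 28 were no longer called, 3 became called and 2 changed sign. Of the values from 1 tumor alone, which have no test, 22 kept their sign and 2 changed it. In the hypoxia comparison MTRNR2L6 went from -1.37 to a range of -2.55 to 0.052 with 1 tumor left out, and to -1.26 by DESeq2, -1.38 with at least 2000 UMIs per spot, -1.18 with tertiles of spots and -0.63 without muscle-rich spots, and these last 4 values were not called. Thinning gave -1.96 for MTRNR2L6. MTRNR2L12 ranged from -0.33 to 0.80 with 1 tumor left out, became called at 0.26 with no filter on low counts (edgeR adjusted p = 0.0462), at 0.77 with at least 2000 UMIs per spot and at 0.78 without the low-UMI area, and turned to -0.69 with thinned spots, where MTRNR2L8 was at -0.031. In the inner tertile, DESeq2 gave 0.92 for MTRNR2L12, 0.86 for MTRNR2L8 and -1.43 for MTRNR2L6, library size alone gave 0.79 for MTRNR2L8 (edgeR adjusted p = 0.0589), leaving out the low-UMI area gave 0.21 for MTRNR2L12, and thinning gave 1.81 for MTRNR2L12 and 1.84 for MTRNR2L8. With 1 tumor left out, MTRNR2L8 ranged from 0.29 to 1.43 and MTRNR2L6 from -2.07 to -0.77 there, and MTRNR2L6 from 0.96 to 3.07 with marker-rich spots. Near the low-UMI area, DESeq2 gave 0.35 for MTRNR2L6, thinning gave 0.71 for MTRNR2L8 and 0.052 for MTRNR2L6, and leaving out border spots gave 0.050 for MTRNR2L6. With marker-rich spots, DESeq2 gave -0.37 for MTRNR2L12 and 2.03 for MTRNR2L6, and MTRNR2L12 was at -0.18 without the low-UMI area and -0.25 with tertiles of spots. The muscle alternative, and one without 5 markers found over all spots, were chosen after seeing the data. The causes were not tested, other than that thinning gives each spot the same weight and leaves out spots under 1000 UMIs.

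Without the replicate block, which drops the pairing of zones by tumor, no member was called: the hypoxia comparison gave 0.72 for MTRNR2L8 and -1.70 for MTRNR2L6, the inner tertile 0.84, 0.72 and -1.54 for MTRNR2L12, MTRNR2L8 and MTRNR2L6, the near zone 0.71, 0.52 and 0.34, and marker-rich spots -0.39, -0.55 and 2.24. The counts of called genes without the block were 542, 41, 14 and 204 in these 4 comparisons, against 1906, 836, 1489 and 1956 with it. DESeq2 called 389, 102, 251 and 216, and thinned spots gave 283, 207, 81 and 242. Library size alone called 390 genes in the inner tertile, counting the frame edge as border 1395, and with marker-rich spots tertiles called 1015 and leaving out border spots 1137.

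Higher against lower calls were 1078 and 828 in the hypoxia comparison and 1027 and 929 with marker-rich spots, and with library size alone 676 and 1782, and 1297 and 623. Near the low-UMI area 592 of the 1489 calls were lower, against 1359 with 487 higher by library size alone, and the median gene shifted by -0.11 in the hypoxia comparison.

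Of the descriptions, the log2 ratio of MTRNR2L6 in the low-UMI area of tumor 2 went from 1.66 to 1.17 with the lowest 20% of spots and 1.08 with thinning. Moran's I for MTRNR2L12 was 0.343 and 0.314 in tumors 1 and 2 without the area, 0.180 and 0.414 with thinning, and 0.550 in tumor 2 with Pearson residuals. For MTRNR2L8 it was 0.265 and 0.286 with Pearson residuals, 0.0266 and 0.187 with thinning, and 0.173 in tumor 2 without the area, and for MTRNR2L6 in tumor 2 it was 0.108 with thinning. The log2 ratio of MTRNR2L8 to MTRNR2L12, area minus rest, in tumor 2 went from -0.59 to -0.27 with thinning and -0.71 with at least 2000 UMIs per spot. Depth limits MTRNR2L6 most, with 836 and 1020 UMIs in all.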
